A study of Mus musculus with 6 samples.

Results

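The genes described here are Nfe2l2, which encodes the transcription factor NRF2, 7 genes known as NRF2 targets (Hmox1, Nqo1, Gclc, Gclm, Txnrd1, Srxn1 and Gsr), and the metallothionein genes Mt1 and Mt2. They were chosen by name, as the rows of the count table that carry these symbols, and all 10 were found among its 24062 symbols. All 10 also passed the filter on low counts, which left 13180 genes for testing. The libraries come from non-cardiomyocytes of Tw2-CreERT2;R26-tdTO mice, in which a tamoxifen-dependent Cre recombinase made under the control of Twist2, a transcription factor gene of mesenchymal cells, switches on the red fluorescent protein tdTomato permanently. Both groups carried both alleles and were dosed with tamoxifen from 8 weeks of age, and hearts were dissociated 10 days later from mice recorded as 9 weeks old. After Langendorff perfusion and depletion of cardiomyocytes, cells were sorted by tdTomato and by the dye Mitoview633 into a red group (Tw2+) and a group without red signal (Tw2-), with 3 libraries each. A Tw2+ cell expressed the driver at dosing or descends from a cell that did, whether or not it still expresses Twist2. Tw2- cells are all remaining non-cardiomyocytes, including any driver-expressing cell that did not recombine, and how many hearts went into each library is not stated in the labels.

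NRF2 is a basic leucine zipper factor of the cap'n'collar family that is controlled largely through the stability of its protein. In resting cells KEAP1 holds it and presents it to a CUL3 ubiquitin ligase. Oxidants and electrophiles react with cysteines of KEAP1, NRF2 then accumulates, pairs with a small MAF protein and binds antioxidant response elements (AREs) of genes for glutathione synthesis, thioredoxin recycling, quinone reduction and haem breakdown. Metallothioneins are small cysteine-rich proteins that bind zinc, copper and cadmium, and their genes are induced through metal response elements (MREs) by the zinc-sensing factor MTF1 and also by glucocorticoids and oxidants.

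Of the 10 genes, 4 rose in Tw2+ and 1 fell. Srxn1, Txnrd1, Mt2 and Mt1 were higher, Gsr was lower, and Nfe2l2, Hmox1, Nqo1, Gclc and Gclm did not pass the test. The median log2 fold change of the 10 genes was 0.95, against 0.00 over all tested genes, and 7 of the 10 were fitted above 0. Over all tested genes 18.2% were called in either direction, 7.41% higher and 10.8% lower, by edgeR's quasi-likelihood test at a Benjamini-Hochberg adjusted p under 0.05. An unadjusted p under 0.05 was reached by 7 of the 10 genes and by 36.7% of all tested genes. The 5 calls lay close to the threshold, with adjusted p between 0.0312 and 0.0462 in edgeR. The 10 genes were named with earlier results of these data known, so their share of calls is a description and no test of the group was made.

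Libraries numbered 2 or 3 are named by their group and number, and in each group 1 library carried no replicate number and is called unnumbered. Library totals were 11746696 to 16447098 counts, so that 3 counts corresponded to 0.161 to 0.302 CPM, counts brought to a common library total, on library sizes scaled by TMM, edgeR's trimmed mean normalisation. Fibroblast transcripts were abundant in both groups, with summed levels of the 13 markers of 65833 to 79557 CPM in Tw2+ and 40785 to 61158 CPM in Tw2-. Much of these sums was Gsn, with means of 40174 CPM in Tw2+ and 28186 CPM in Tw2-. Of the 13 markers, 12 were fitted above 0 (median log2 fold change 0.56) and 1 passed the test as higher. Other cell types differed more. All 14 macrophage and monocyte markers, all 6 granulocyte markers and all 5 tested B cell markers fell in Tw2+, as did 13 of 14 cardiomyocyte markers and 4 of 14 vascular endothelial markers. Among the tested markers of further types, 1 of 1 fell for T and NK cells and for erythroid cells, 4 of 6 for lymphatic endothelium, 1 of 9 for pericytes, 3 of 6 for smooth muscle, 1 of 2 for Schwann cells and 0 of 7 for epicardium and mesothelium, while 1 lymphatic and 1 pericyte marker rose and no adipocyte marker could be tested. Summed macrophage and monocyte markers were at 135 to 324 CPM in Tw2+ and 2739 to 5994 CPM in Tw2-, with none of the 14 at 0 counts throughout Tw2+. The part of these cells in the levels given below was not tested, and in such bulk libraries fewer cells of a type and less RNA per cell cannot be told apart. On the first principal component Tw2+ 3, at 27.9, lay nearest to the Tw2- libraries, which ran from -80.2 to -46.1, while the other Tw2+ libraries were at 72.2 and 95.5. Of all tested genes, 976 were higher and 1419 lower. These counts were 404 and 1716 with scaling by library size alone, and 121 and 3069 with scaling to the fibroblast markers, which moved the median of all genes to -0.28 and -0.56.

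Nfe2l2 itself (chromosome 2, 75675513 to 75704641 on the - strand of GRCm38) was not called in either direction. Its level was 245 CPM in Tw2+ 2, 186 CPM in Tw2+ 3 and 248 CPM in the unnumbered Tw2+ library. In Tw2- it was 304 CPM in library 2, 231 CPM in library 3 and 325 CPM in the unnumbered one. The groups overlapped, since Tw2- 3 lay below the pair of higher Tw2+ libraries. The means were 226 ± 34.9 CPM in Tw2+ and 287 ± 49.2 CPM in Tw2- (SD, n = 3 libraries each). The log2 fold change, -0.34 (SE 0.22), missed the threshold (edgeR, adjusted p = 0.281). Scaling by library size alone, or to the fibroblast markers, put Nfe2l2 past the threshold as lower (edgeR, log2 -0.63, adjusted p = 0.0472, and -0.92, adjusted p = 0.0382). These scalings also moved the median of all genes, to -0.28 and -0.56. The position of Nfe2l2 between targets of higher and lower level is shown in the plot of levels by library.

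**Figure D1:**
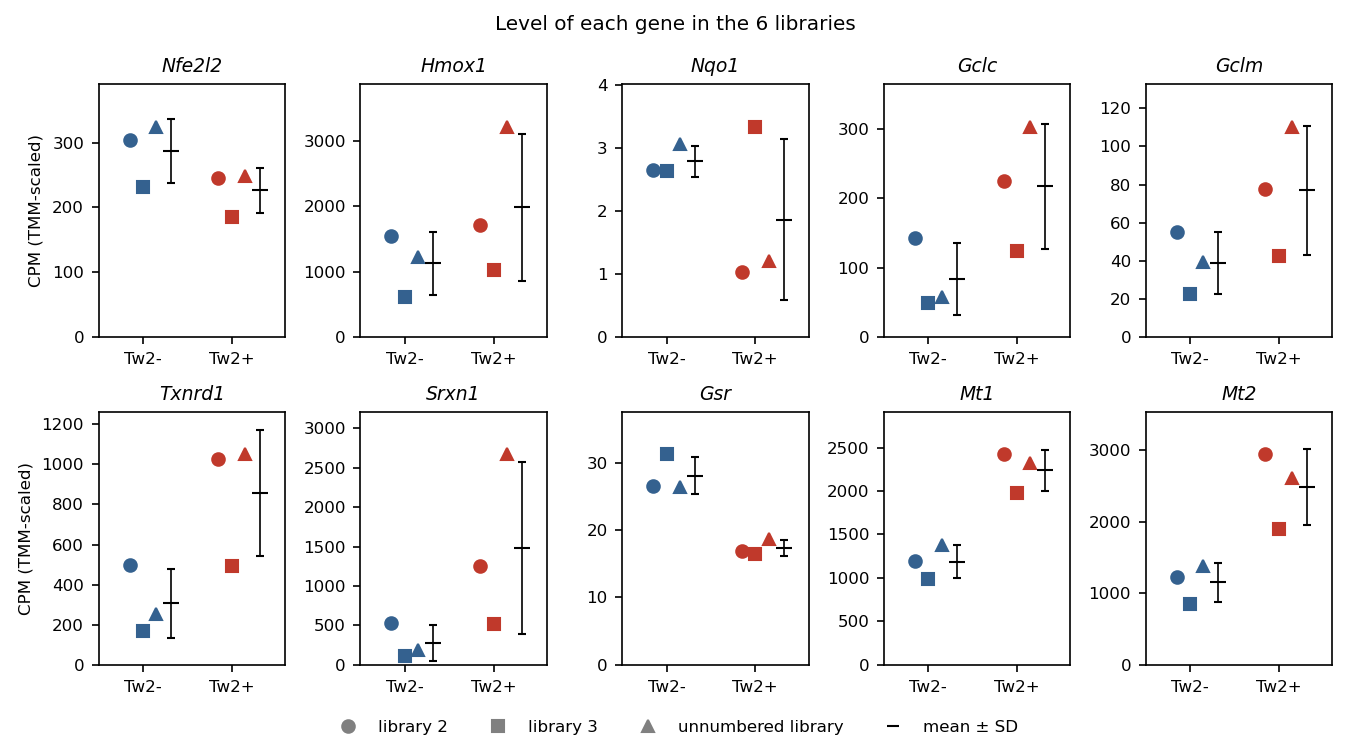
Level of each of the 10 genes in CPM (TMM-scaled library sizes, linear axis from 0) in the 3 Tw2- libraries (blue) and the 3 Tw2+ libraries (red), with symbols for the library numbers and black bars for the mean ± SD. Mt1, Mt2 and Gsr are the genes whose groups do not overlap, and Srxn1 spans the widest range, from 110 to 2669 CPM.

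The thioredoxin branch held the largest rise among the 10 genes. Srxn1 (chromosome 2, 152105516 to 152111376, + strand) encodes sulfiredoxin, which restores overoxidised peroxiredoxins. It reached 1249 CPM in Tw2+ 2, 521 CPM in Tw2+ 3 and 2669 CPM in the unnumbered Tw2+ library. In Tw2- it was at 531 CPM in library 2, 110 CPM in library 3 and 185 CPM in the unnumbered library. The unnumbered Tw2+ library stood far above the rest, and Tw2- 2 was marginally above Tw2+ 3, so the groups overlapped. With means of 1480 ± 1093 CPM and 275 ± 225 CPM (SD, n = 3 each), Srxn1 was 5.37-fold higher in Tw2+ (log2 2.43, SE 0.70, edgeR adjusted p = 0.0433).

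Txnrd1 (chromosome 10, 82833951 to 82897712, + strand) encodes the cytosolic thioredoxin reductase, the selenoenzyme that recycles thioredoxin with NADPH. Its levels were 1025 CPM in Tw2+ 2, 492 CPM in Tw2+ 3 and 1050 CPM in the unnumbered Tw2+ library, and in Tw2- 497 CPM in library 2, 170 CPM in library 3 and 253 CPM in the unnumbered one. As for Srxn1, Tw2- 2 and Tw2+ 3 met in the middle and the other 4 libraries lay on the side of their group. The rise was 2.79-fold (log2 1.48, SE 0.43, edgeR adjusted p = 0.0462). The calls of Srxn1 and Txnrd1 remained without Tw2- 2 (adjusted p = 0.0287 and 0.0224) and without Tw2+ 3 (0.00638 and 0.00760), and were lost without any of the other 4 libraries, with adjusted p up to 0.156 and 0.173. They were also lost when counts were scaled by library size alone (edgeR adjusted p = 0.0667 and 0.0796), where the median of all genes was -0.28.

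The start region of Srxn1 is shown because Srxn1 moved most and its window holds ARE letters. RefSeq gives the 300 bases from 250 before the annotated start to 50 after it on GRCm38.p6 as chr2:152105274-152105573, + strand. Capitals mark TGAGTCAGC, 1 of the spellings TGACTCAGC and TGAGTCAGC of the site bound by NRF2 with a small MAF protein. They also mark a separate match to the ARE core TGACNNNGC, here read on the opposite strand and lying after the annotated start. TGAGTCAGC itself does not match that core.
Srxn1: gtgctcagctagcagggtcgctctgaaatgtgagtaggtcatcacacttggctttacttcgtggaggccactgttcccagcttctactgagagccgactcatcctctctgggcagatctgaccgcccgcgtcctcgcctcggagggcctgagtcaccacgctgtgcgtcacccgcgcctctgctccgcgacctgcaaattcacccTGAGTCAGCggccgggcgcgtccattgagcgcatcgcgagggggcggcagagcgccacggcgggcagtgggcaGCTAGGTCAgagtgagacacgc
TGAGTCAGC begins 45 bases before the start, and its first 7 letters, TGAGTCA, are also an AP-1 site. The window holds a further copy of TGAGTCA beginning 102 bases before the start. On both strands, 0.822% of 32841 RefSeq windows of the same length hold TGACTCAGC or TGAGTCAGC, 12.4% hold TGACNNNGC and 5.20% hold TGACTCA or TGAGTCA. Of the 10 genes, 7 had a window in the table, in 9 windows because Txnrd1 has 3 starts. TGACNNNGC was found in the windows of Nfe2l2, Srxn1, Gclm and Mt2 and in 1 of the 3 of Txnrd1, and not in those of Nqo1 and Mt1. A match describes the letters only, and the windows leave out distal enhancers.

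Of the 3 glutathione genes, only Gsr was called. Gclc (chromosome 9, 77754535 to 77794485, + strand) encodes the catalytic subunit of glutamate-cysteine ligase, the rate-limiting enzyme of glutathione synthesis, and Gclm (chromosome 3, 122245557 to 122270732, + strand) its modifier subunit. Gclc stood at 225 CPM in Tw2+ 2, 124 CPM in Tw2+ 3 and 304 CPM in the unnumbered Tw2+ library, against 143 CPM in Tw2- 2, 49.0 CPM in Tw2- 3 and 58.0 CPM in the unnumbered Tw2- library. Tw2- 2 exceeded Tw2+ 3, and the log2 fold change of 1.38 (SE 0.45) did not pass the test in edgeR (adjusted p = 0.0633), while it passed in DESeq2 (log2 1.36, adjusted p = 0.0203).

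Gclm followed the same order of libraries at lower level, with 77.9 CPM in Tw2+ 2, 42.7 CPM in Tw2+ 3 and 110 CPM in the unnumbered Tw2+ library, and with 55.1, 22.7 and 39.5 CPM for the corresponding Tw2- libraries. Its groups overlapped and its log2 fold change was 0.98 (SE 0.40, edgeR adjusted p = 0.111). Without Tw2+ 3 both subunits passed as higher (edgeR adjusted p = 0.0118 for Gclc and 0.0145 for Gclm). Counts of Gclc were 2.75 to 2.91 times those of Gclm within the Tw2+ libraries and 1.47 to 2.59 times within the Tw2- libraries. These ratios are not per length and compare the libraries, not the subunits.

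Gsr (chromosome 8, 33652523 to 33698163, + strand), the glutathione reductase that regenerates reduced glutathione, fell in Tw2+. It was at 16.9 CPM in Tw2+ 2, 16.4 CPM in Tw2+ 3 and 18.7 CPM in the unnumbered Tw2+ library, against 26.5 CPM in Tw2- 2, 31.2 CPM in Tw2- 3 and 26.4 CPM in the unnumbered Tw2- library. All Tw2+ libraries lay below all Tw2- libraries, with little spread inside a group, as they do in either direction for 37.4% of all tested genes. Means of 17.4 ± 1.22 CPM and 28.1 ± 2.75 CPM (SD, n = 3 each) gave a log2 fold change of -0.69 (SE 0.20, edgeR adjusted p = 0.0417). In edgeR the call remained without Tw2+ 3 (adjusted p = 0.0310) and with every other scaling tried (adjusted p of 0.0136 to 0.0404). Library size scaling put Gsr at log2 -0.98, where the median of all genes was -0.28. Scaling to the fibroblast markers put it at -1.26, where that median was -0.56. The call was lost when any other library was left out, with edgeR adjusted p of 0.0622 to 0.170. It was also lost without the filter on low counts (0.0518).

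Hmox1 (chromosome 8, 75093621 to 75100589, + strand) encodes haem oxygenase-1, the inducible enzyme that opens the haem ring and releases iron, carbon monoxide and biliverdin, and it is also a gene of haem-degrading macrophages. Its levels were 1718 CPM in Tw2+ 2, 1021 CPM in Tw2+ 3 and 3222 CPM in the unnumbered Tw2+ library. They were 1552 CPM in Tw2- 2, 612 CPM in Tw2- 3 and 1224 CPM in the unnumbered Tw2- library. Tw2+ 3 lay below 2 of the 3 Tw2- libraries, so the groups overlapped widely. The means were 1987 ± 1125 CPM and 1129 ± 477 CPM (SD, n = 3 each), and the log2 fold change of 0.82 (SE 0.46) did not pass the test (edgeR, adjusted p = 0.232, and DESeq2, 0.199). Summed macrophage and monocyte markers were lower in Tw2+, at 135 to 324 CPM against 2739 to 5994 CPM in Tw2-, and their part in the Hmox1 level was not tested.

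Nqo1 (chromosome 8, 107388225 to 107403206, - strand), the quinone reductase often used as a readout of NRF2, was close to the limit of the depth. It had 12, 41 and 12 counts in Tw2+ (2, 3, unnumbered), or 1.04, 3.33 and 1.21 CPM. It had 44, 49 and 39 counts in Tw2-, or 2.65, 2.63 and 3.06 CPM. Tw2+ 3 was the highest of all 6 libraries and the other Tw2+ libraries were the lowest. The log2 fold change was -0.56 (SE 0.47, edgeR adjusted p = 0.411), and without Tw2+ 3 it was -1.30 (adjusted p = 0.0301). Within Tw2+, summed epicardial and mesothelial markers were also highest in Tw2+ 3, at 182 CPM against 74.6 (2) and 58.0 CPM (unnumbered). So were summed vascular endothelial markers (1454 against 841 and 697 CPM) and macrophage and monocyte markers (324 against 227 and 135 CPM). Summed fibroblast and cardiomyocyte markers were highest in Tw2+ 2. In Tw2- the epicardial and mesothelial sum was 123, 66.2 and 55.6 CPM (2, 3, unnumbered), lowest where Nqo1 was highest. The part of any of these cells in the Nqo1 level was not tested.

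Both metallothioneins rose. Mt2 (chromosome 8, 94172664 to 94173568, + strand) was at 2941 CPM in Tw2+ 2, 1903 CPM in Tw2+ 3 and 2604 CPM in the unnumbered Tw2+ library, against 1227 CPM in Tw2- 2, 850 CPM in Tw2- 3 and 1380 CPM in the unnumbered Tw2- library. Every Tw2+ library lay above every Tw2- library. The means of 2483 ± 530 CPM and 1152 ± 273 CPM (SD, n = 3 each) gave a 2.16-fold rise (log2 1.11, SE 0.28, edgeR adjusted p = 0.0312). An antisense gene, Gm45774, covers 73.5% of the exonic length of Mt2. Reads of these genes cannot be told apart without knowing whether strand was used in counting, which the labels do not state.

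Mt1 (chromosome 8, 94179082 to 94180327, + strand), which lies 5513 bp beyond Mt2, had 2422 CPM in Tw2+ 2, 1976 CPM in Tw2+ 3 and 2320 CPM in the unnumbered Tw2+ library, against 1195 CPM in Tw2- 2, 991 CPM in Tw2- 3 and 1380 CPM in the unnumbered Tw2- library. Its groups did not overlap either, and the spread inside a group was small beside the step between them. The rise was 1.88-fold (log2 0.91, SE 0.24, edgeR adjusted p = 0.0329). No gene overlaps the exons of Mt1, and it shares no stretch of 50 bases with another annotated transcript. Complete separation with Tw2+ above was seen for 18.2% of tested genes.

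The calls of both metallothioneins depended on single libraries. Mt2 passed without Tw2+ 3 (edgeR adjusted p = 0.00726) and without the unnumbered Tw2- library (0.0488), and Mt1 passed without Tw2+ 3 (0.0123). Each gene missed the threshold in its own other refits with 1 library left out. The edgeR adjusted p there was 0.0514 to 0.164 for Mt1 and 0.0717 to 0.143 for Mt2. Relative to library size alone the log2 fold changes were 0.63 for Mt1 and 0.82 for Mt2, where the median of all genes was -0.28, and neither passed (adjusted p = 0.0721 and 0.0574). Relative to the fibroblast markers they were 0.35 and 0.53, where the median of all genes was -0.56, and again neither passed (0.293 and 0.173).

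The start regions of Mt2 and Mt1 are shown because MREs lie there in known metallothionein promoters and the genes moved together. Both windows come from RefSeq on GRCm38.p6, + strand, chr8:94172368-94172667 for Mt2 and chr8:94178839-94179138 for Mt1. Capitals mark the MRE core, searched as TGCACNC and TGCGCNC on both strands, and in Mt2 also TGACTCAGC.
Mt2: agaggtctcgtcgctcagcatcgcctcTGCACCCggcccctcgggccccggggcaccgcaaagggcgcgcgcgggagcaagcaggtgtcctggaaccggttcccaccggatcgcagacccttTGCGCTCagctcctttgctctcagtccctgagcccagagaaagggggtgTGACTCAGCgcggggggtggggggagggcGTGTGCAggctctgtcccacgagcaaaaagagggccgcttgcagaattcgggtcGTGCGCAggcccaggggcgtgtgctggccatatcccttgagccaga
Mt1: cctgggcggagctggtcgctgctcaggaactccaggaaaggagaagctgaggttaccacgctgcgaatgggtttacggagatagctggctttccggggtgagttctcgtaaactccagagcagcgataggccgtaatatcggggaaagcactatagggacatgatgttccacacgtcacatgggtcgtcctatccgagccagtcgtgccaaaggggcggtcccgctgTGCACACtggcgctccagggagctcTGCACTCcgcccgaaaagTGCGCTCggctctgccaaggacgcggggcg
The Mt2 window holds 4 MRE cores and the Mt1 window 3. Of these, GTGCGCA in Mt2 and both TGCACTC and TGCGCTC in Mt1 lie after the annotated start. Of all windows of this length 1.97% hold at least 3 and 0.518% hold at least 4. Gclm, whose window has 79.7% GC, also holds 3, of which 1 overlaps its TGACNNNGC, Srxn1 holds 1, and the windows of Nfe2l2, Nqo1 and Txnrd1 hold none of these letters. TGACTCAGC in Mt2 begins 79 bases before the start and includes an AP-1 site in its first 7 letters. Mt2 and Srxn1 are the members whose windows hold TGACTCAGC or TGAGTCAGC.

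**Figure D2:**
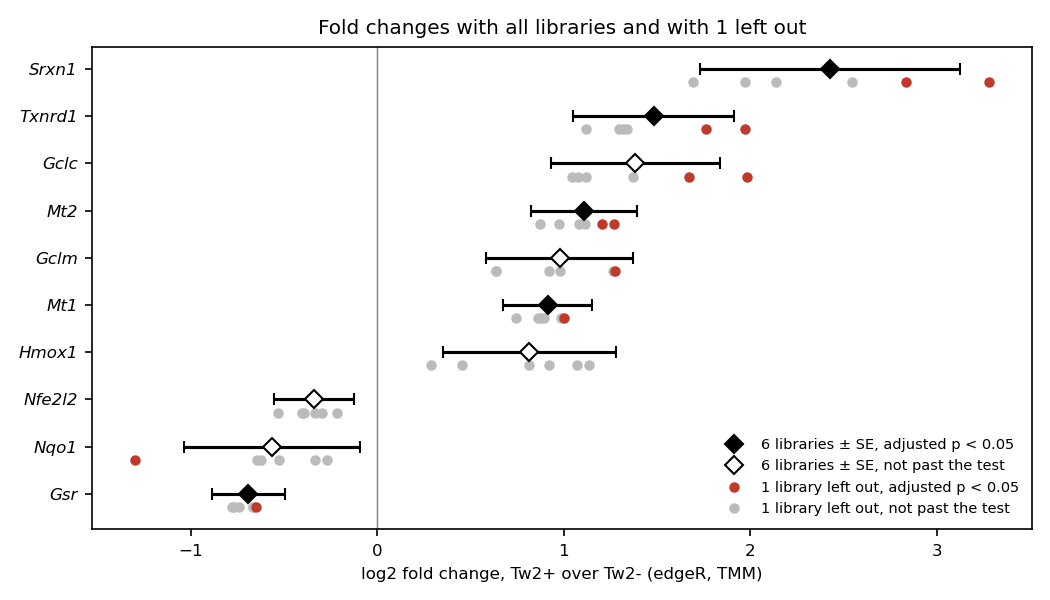
Log2 fold change of Tw2+ over Tw2- for each gene (horizontal axis, edgeR with TMM), as diamonds with SE bars for all 6 libraries, filled where the adjusted p is under 0.05, and as dots for the fits with 1 library left out, red where the adjusted p is under 0.05. All fits of a gene lie on the same side of 0, from -1.30 for Nqo1 to 3.28 for Srxn1, while most fits with a library left out miss the threshold.

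The order of levels per length was nearly the same in both groups. Per kb of the principal transcript of GENCODE M21, Mt2 reached 4858 ± 1037 CPM in Tw2+ cells against 2254 ± 534 CPM, and Mt1 had 4079 ± 425 and 2165 ± 354 CPM (SD, n = 3 each). Hmox1 came next with 1267 ± 717 and 720 ± 304 CPM per kb. In Tw2+ the order continued with Srxn1 at 526 ± 389, Txnrd1 at 242 ± 89.2, Nfe2l2 at 91.4 ± 14.1 and Gclc at 63.5 ± 26.3 CPM per kb, followed by Gclm at 13.8 ± 6.06, Gsr at 6.50 ± 0.455 and Nqo1 at 1.20 ± 0.824. Neighbours whose ranges overlapped between libraries in Tw2+ were Mt2 and Mt1, Hmox1 and Srxn1, Srxn1 and Txnrd1, and Nfe2l2 and Gclc. In Tw2- Nfe2l2, at 116 ± 19.9 CPM per kb, ranked above Srxn1 at 97.9 ± 79.9 and Txnrd1 at 86.8 ± 48.2, and these 3 overlapped there. Gsr at 10.5 ± 1.03 CPM per kb ranked above Gclm in Tw2-, where the lowest Gsr library (9.87) was just above the highest Gclm library (9.86). The comparison assumes that reads follow the length of the principal transcript.

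Libraries of a group differed as much as the groups did for several members. For 9 of the 10 genes Tw2- 3 was the lowest Tw2- library, the exception being Gsr, and for 9 of the 10 Tw2+ 3 was the lowest Tw2+ library, the exception being Nqo1. The unnumbered Tw2+ library was the highest of all 6 for 5 genes, Hmox1, Gclc, Gclm, Txnrd1 and Srxn1. Within Tw2-, library 2 exceeded library 3 by 4.81 times in Srxn1, 2.93 times in Txnrd1, 2.92 times in Gclc, 2.54 times in Hmox1 and 2.43 times in Gclm. The same ratio was 1.44 in Mt2, 1.32 in Nfe2l2, 1.21 in Mt1, 1.01 in Nqo1 and 0.850 in Gsr. Srxn1, Txnrd1, Gclc, Hmox1 and Gclm were thus more spread between these libraries than the metallothioneins, and Nqo1 and Gsr less.

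As a measure of likeness, each gene's log2 CPM was centred on its mean over the 6 libraries, and genes were compared by the root mean square difference. Among the 45 pairs of members the closest were Mt1 with Mt2 (0.16), Gclc with Txnrd1 (0.16) and Hmox1 with Gclm (0.17), and the farthest was Nqo1 with Srxn1 (2.05). Among 8885 other tested genes with at least 10 CPM, those nearest to Hmox1 were Gclm (0.17), Plagl1 (0.20) and Basp1 (0.21), where the median gene lay at 0.73. Those nearest to Nfe2l2 were Vav3 (0.087), Gpcpd1 (0.093) and Ddit3 (0.094), with a median of 0.43, and those nearest to Mt1 were Irs1 (0.086), Dennd2a (0.094) and Ctsl (0.095), with a median of 0.49. All points share the same 6 libraries, so these distances are descriptions of these libraries.

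**Figure D3:**
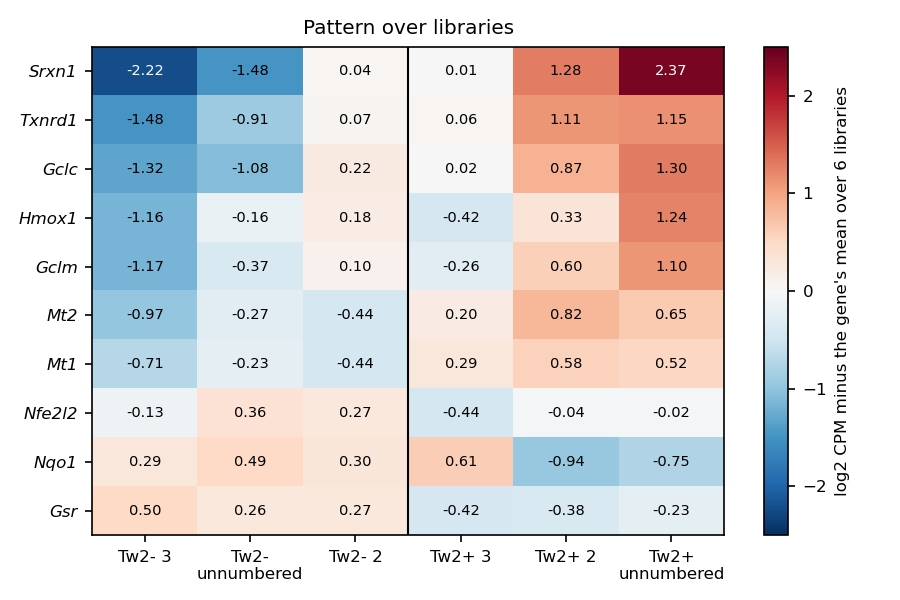
Log2 CPM of each gene (rows) in each library (columns, Tw2- left and Tw2+ right of the line) minus the gene's mean over the 6 libraries, from blue (lower) to red (higher). Srxn1, Txnrd1, Gclc, Hmox1 and Gclm are lowest in Tw2- 3 and highest in the unnumbered Tw2+ library, with Tw2- 2 and Tw2+ 3 between (0.04 and 0.01 for Srxn1), whereas Gsr is above its mean in every Tw2- library.

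Of 12 tested genes of NRF2 regulation, 1 rose and the other 11 did not pass, against 7.41% higher and 10.8% lower over all tested genes. The list had a median of 0.14 on the log2 scale. The gene that rose was Maff, one of the small MAF partners, with a mean of 1314 ± 435 CPM among Tw2+ libraries against 452 ± 140 CPM (SD, n = 3 each). In the order 2, 3 and unnumbered it had 1281, 895 and 1764 CPM in Tw2+, all above the 606, 332 and 419 CPM of Tw2-. The log2 fold change was 1.54 (SE 0.33, edgeR adjusted p = 0.0154), and 4 of the 6 refits that each drop a library kept the call. The count of higher genes in this list was 4 without Tw2+ 3 and 2 without Tw2- 2. It was 0 without Tw2- 3 or without the unnumbered Tw2- library. Over all tested genes these refits called 2801 of 13561, 390 of 13284, 81 of 13297 and 300 of 13543 higher, in the same order. Keap1, which encodes the repressor of NRF2, had 23.2 ± 8.05 CPM against 34.1 ± 4.20 CPM in the Tw2- cells (log2 -0.55, SE 0.27, edgeR adjusted p = 0.166).

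Of 25 other NRF2 targets tested, 3 rose and 2 fell, with a median of -0.06, a share of calls near the 18.2% of all tested genes. Ugdh, the UDP-glucose dehydrogenase that also supplies precursors of hyaluronan, had the largest rise, with 3492, 1280 and 4952 CPM in Tw2+ (2, 3, unnumbered) and 1095, 295 and 556 CPM in Tw2- (log2 2.32, SE 0.58, edgeR adjusted p = 0.0293). Its libraries had the order of those of Srxn1 except that the groups did not overlap. Cbr3, a carbonyl reductase, and Txn1, the thioredoxin that TXNRD1 recycles, rose by less (log2 0.87, adjusted p = 0.0356, and 0.73, adjusted p = 0.0463 in edgeR). G6pdx, the enzyme that opens the pentose phosphate pathway and yields NADPH, and Osgin1 fell (log2 -0.83, adjusted p = 0.0357, and -0.83, adjusted p = 0.0423). The calls of Cbr3, Txn1 and Osgin1 each held in 1 of the 6 such refits, and those of Ugdh and G6pdx in 2.

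Of 22 antioxidant enzymes outside this set, 2 rose and 3 fell, with a median of 0.25, against 7.41% higher and 10.8% lower over all tested genes. The rises were Txnrd3, a thioredoxin and glutathione reductase (log2 1.16, SE 0.30, edgeR adjusted p = 0.0324), and Gpx8, an endoplasmic reticulum peroxidase (0.72, adjusted p = 0.0488). The falls were Msrb1, a methionine sulfoxide reductase (log2 -1.81, SE 0.26, edgeR adjusted p = 0.00204), Gpx1, the cytosolic glutathione peroxidase (-0.87, adjusted p = 0.0297), and catalase, Cat (-0.84, adjusted p = 0.0498). Dropping any 1 library left Msrb1 past the threshold, while the other 4 kept it in 1 or 2 of 6 refits.

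Over all tested genes 10.8% were called lower. Around haem oxygenase, 4 of 16 genes of haem and iron handling fell and the other 12 did not pass (median -0.01). They were Cd163, the haemoglobin scavenger receptor of macrophages (means of 12.5 ± 8.70 CPM against 261 ± 89.6 CPM, log2 -4.38, SE 0.53, edgeR adjusted p = 0.000820), and Slc40a1, the iron exporter ferroportin (-1.76, adjusted p = 0.00392). Hmox2, the constitutive haem oxygenase, stood at 11.5 ± 3.79 CPM, below the 29.2 ± 5.75 CPM of Tw2- cells (log2 -1.35, SE 0.28, adjusted p = 0.0148), and Blvrb, a biliverdin reductase, fell by 1.02 on the log2 scale (adjusted p = 0.0360). Cd163 and Slc40a1 stayed past the threshold whichever library was dropped, Hmox2 in 4 and Blvrb in 2 of the 6 refits. All 14 macrophage and monocyte markers fell in the same comparison, and their part in these falls was not tested.

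Around the metallothioneins, 1 of 16 tested genes of zinc and copper handling rose, a share near the 7.41% over all tested genes. The other 15 did not pass, and the list's median was 0.42. The gene that rose was Slc39a6, a zinc importer, with a mean of 119 CPM (SD 54.1) over 53.0 CPM (log2 1.16, SE 0.34, edgeR adjusted p = 0.0471), with overlapping groups. Mtf1, the metal sensor, was at 32.8 ± 9.80 and 23.5 ± 3.72 CPM (log2 0.48, SE 0.26, edgeR adjusted p = 0.212). Its log2 fold change turned to -0.12 with scaling to the fibroblast markers, where the median of all genes was -0.56. Of 10 genes of the glucocorticoid response, 2 rose, against 7.41% over all tested genes, while the list's median was -0.45. These 2 were the kinase gene Sgk1 (log2 1.37, SE 0.36, edgeR adjusted p = 0.0341) and the ErbB inhibitor gene Errfi1 (1.40, adjusted p = 0.0317). Slc39a6 kept its call in 1, and Sgk1 and Errfi1 in 2, of the 6 refits.

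Of 12 immediate early and heat shock genes, which cell isolation can induce, 3 fell and the other 9 did not pass (median -0.56). The share called lower over all tested genes was 10.8%. The falls were the heat shock genes Hspa1a (log2 -1.93, SE 0.31, edgeR adjusted p = 0.00371) and Hspa1b (-1.47, adjusted p = 0.0210) and the stress factor Atf3 (-0.86, adjusted p = 0.0498). Hspa1a kept its call in all 6 refits that each drop a library, Hspa1b in 2 and Atf3 in 1. The summed level of this list was 41328 CPM in Tw2+ 3 against 18752 CPM in Tw2+ 2 and 17551 CPM in the unnumbered Tw2+ library, and 30132 to 38134 CPM in Tw2-. Of 12 genes of the integrated stress response, an ATF4-driven programme that includes amino acid synthesis, 8 rose (median 1.82), against 7.41% over all tested genes. Among them were asparagine synthetase, Asns (log2 2.38, SE 0.47, edgeR adjusted p = 0.0111), Shmt2 (1.74, adjusted p = 0.0132) and Trib3 (1.90, adjusted p = 0.0134). For this list the summed level was 4090 CPM in the unnumbered Tw2+ library, 3224 CPM in Tw2+ 2 and 1927 CPM in Tw2+ 3. Srxn1, Txnrd1, Hmox1, Gclc, Gclm, Nfe2l2 and Gsr share this order within Tw2+. The integrated stress response list had 3 calls without Tw2- 2, 5 without the unnumbered Tw2- library and 0 without Tw2- 3 in edgeR. DESeq2 on all libraries called 10. Over all tested genes the same edgeR fits called 390 of 13284, 300 of 13543 and 81 of 13297 higher, and DESeq2 1543 of 15036. Asns and Trib3 kept their calls in 5 of the 6 refits and Shmt2 in 4. The part of either stress programme in the levels of the 10 genes was not tested.

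**Figure D4:**
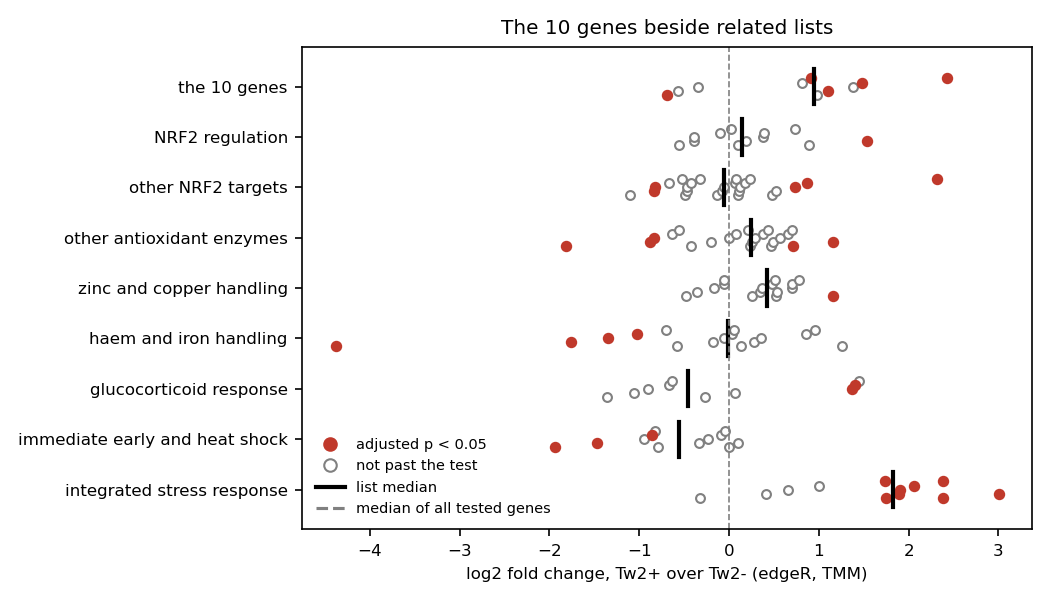
Log2 fold change of Tw2+ over Tw2- (horizontal axis, edgeR with TMM) of the tested genes of each list, filled red where the adjusted p is under 0.05, with a black bar at the list's median and a dashed line at the median of all tested genes. The 10 genes have a median of 0.95, the other NRF2 targets one of -0.06 and the integrated stress response list one of 1.82.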

How the data were processed

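Bulk RNA sequencing of sorted mouse heart cells gave 6 libraries, 3 per group. The authors deposited unnormalised counts by gene symbol. Builds GRCm38 and mm10 and the tools DESeq2 1.6.3 and TopHat2 2.0.0 appear, without roles, per the submitters' processing notes. Neither the counting program nor its strand setting and annotation is named there. Column names gave 4 libraries a group and number and 2 a group only, and all were used. No 2 libraries of a group were duplicates (chi-square over degrees of freedom, lowest 25.3). P-values measure the spread between libraries that the design text calls biological replicates.

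Counts were tested with edgeR 4.0.16 in R 4.3.3 (glmQLFit, glmQLFTest) on the whole table with TMM factors of 0.846 to 1.13 and filterByExpr at a minimum count of 10, adjusted by Benjamini-Hochberg over all 13180 genes. SEs are the log2 fold change over the root of the F statistic. The code was tested on simulated counts. The 10 genes and the 22 lists of related genes and markers were chosen with earlier results of these data known. From each related list the 3 called genes of smallest adjusted p were named, and genes that the rule takes only for their level are not reported. Txn1, Osgin1, Cat, Gpx8, Blvrb, Keap1 and Mtf1 were named outside the rule with their values in view, and the TGACTCAGC and AP-1 searches were added after the sequences were seen. Positions and lengths came from GENCODE M21 on GRCm38, and start windows from RefSeq on GRCm38.p6. Alternatives were DESeq2 1.42.0, limma-voom (limma 3.58.1), other scalings, filters and thresholds, robust dispersion, a block for the replicate number, and leaving out libraries.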

Additional observations from a re-analysis of the deposited data

How the results depend on the processing

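All 10 genes kept the sign of their log2 fold change under each of the 19 alternatives in which they could be fitted. Nqo1 did so in 18, because it missed the filter of 50 counts in 3 libraries. The threshold of 0.01 and robust dispersion left the fold changes as in the main fit, so the sign could not differ there. Their calls were less stable, and the cause was not tested. As with TMM, limma-voom, upper-quartile scaling and robust dispersion each gave 4 higher and 1 lower. RLE scaling and the filter of 50 counts each left 2 higher and 1 lower. Scaling by library size or to the fibroblast markers left 0 higher and 2 lower in edgeR, with 7 and 3 of the 10 at an unadjusted p under 0.05. No filter on low counts gave 5 higher and 0 lower with 7 at an unadjusted p under 0.05. A threshold of 0.01 gave 0 in either direction with 7 at an unadjusted p under 0.05, while DESeq2 called 5 higher and 1 lower. With 1 library left out the counts ran from 0 to 6 higher and from 0 to 2 lower. Over all genes, DESeq2 called 1543 higher, scaling by library size 404, scaling to the fibroblast markers 121 higher and 3069 lower, and a threshold of 0.01 90 higher and 701 lower. With 1 library left out these counts ran from 81 to 2801 higher and from 811 to 2906 lower, and without Tw2+ 3 and the unnumbered Tw2- library they were 2565 and 3068. Mtf1 turned to -0.12 with scaling to the fibroblast markers, where the median of all genes was -0.56.

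The replicate number was tried as a block on the 4 numbered libraries, which called 6 of the 10 genes higher and 1 lower, and 1300 genes higher and 2203 lower over all. The same 4 libraries without a block, a fit added after the data were seen, called 0 of the 10 in either direction in edgeR (3 at an unadjusted p under 0.05) and 115 genes higher and 1195 lower over all. Deviations from the group means correlated at 0.20 for number 2 and 0.56 for number 3 across genes. Crossed, they correlated at -0.17 (Tw2- 2 with Tw2+ 3) and -0.42 (Tw2- 3 with Tw2+ 2). Deviations cancel within each group, so these values are not independent, and nothing in the labels says that a number marks a shared heart or day.

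Depth limits Nqo1 most, with 12 to 49 counts per library.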

Other observations

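In the unnumbered Tw2- library Mt1 and Mt2 had the same count, 17568 each, and in the other libraries their count ratio ran from 0.823 to 1.17. The genes whose pattern over the 6 libraries lay nearest to Srxn1, looked up after its values were seen, were Fosl1, a subunit of AP-1 (root mean square difference of 0.17 in centred log2 CPM), Ugdh (0.25) and the matrix gene Tnc (0.30), where the median gene lay at 1.52. Mean levels of Fosl1 were 158 ± 94.6 CPM for Tw2+ against 29.8 ± 22.8 CPM (SD, n = 3 libraries each).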
